A study of Mus musculus with 12 samples.

Results

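The comparison sets the distal segment of crushed mouse sciatic nerve at day 14 against day 0, the last time point of the study against its first. Its members are the 3 arrays of each day, 6 of the 12 arrays in the series, picked by the day that each label gives. Every array carries 90752 probes of 60 bases, of which 62803 were tested. All mice were C57Bl6 animals about 2 months old, and 18 mice stood behind each day, pooled 6 to an array. Under anaesthesia the right sciatic nerve was exposed and compressed for 30 s, which severs the axons and leaves the outer sheath whole, a ligature marked the site, and 0.5 cm of the distal nerve was taken. The labels give the same procedure for both days, do not say whether day 0 nerves were crushed, and name no uninjured or sham-operated group. The arrays of days 3 and 7 entered the fit, where they share the estimate of the spread, bear on which probes were tested and, with a slide term, set part of the estimate. Their values are given beside the comparison where they place it in time. Each array holds total RNA of a whole nerve segment, so fewer cells of a type and less RNA per cell cannot be told apart. The labels call the pools biological replicates, and the p-values measure the spread between such pools and their arrays.

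A crush starts Wallerian degeneration in the distal nerve: cut axons break down, Schwann cells shed their myelin and turn to a repair state, and macrophages enter and clear debris. Later, regrowing axons pass through the segment and are wrapped in new myelin, so the second week after a mouse nerve crush is a time of regrowth and remyelination. Long non-coding RNAs, the class this array was built for, include the primary transcripts from which microRNA hairpins are cut and transcripts that start near or run against protein-coding genes. A mature microRNA pairs with target messenger RNAs mainly through its seed, bases 2 to 8, and lowers their output.

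The files name probes by number and give no gene. Of the 90752 probes, 892 lay inside any of the 921 RefSeq hairpins that are at least 60 bases long, and 861 of these matched a single hairpin on its own strand. A further 195 probes matched the stretch around an annotated gene start on the strand of the gene, and 187 on the other strand. All matches were exact over 60 bases, and positions are those of RefSeq on GRCm38.p6. The probes are 60 bases long and were hybridised with amplified total RNA, so a hairpin probe reads the primary transcript or host gene RNA that holds the hairpin, and the level of the mature microRNA was not measured. Shown first are the hairpin probes on which the results turn, with any whole mature arm listed by RefSeq in capitals.
Mir147, chr2:122640821-122640880, plus strand: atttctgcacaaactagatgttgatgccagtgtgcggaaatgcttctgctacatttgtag
Mir21a, chr11:86584067-86584126, minus strand: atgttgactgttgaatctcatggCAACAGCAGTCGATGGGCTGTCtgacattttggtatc
Mir23b, chr13:63300498-63300557, plus strand: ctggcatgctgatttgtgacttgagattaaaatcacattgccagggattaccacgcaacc
Mir27b, chr13:63300723-63300782, plus strand: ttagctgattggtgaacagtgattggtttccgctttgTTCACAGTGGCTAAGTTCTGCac
Mir23a, chr8:84208533-84208592, plus strand: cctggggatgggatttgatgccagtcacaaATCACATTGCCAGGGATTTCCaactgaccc
Mir27a, chr8:84208691-84208750, plus strand: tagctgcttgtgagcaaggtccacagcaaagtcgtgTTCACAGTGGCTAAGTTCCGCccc
Mir92-1, chr14:115044430-115044489, plus strand: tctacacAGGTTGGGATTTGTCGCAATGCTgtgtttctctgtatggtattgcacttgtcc
Mir7-1, chr13:58392779-58392838, minus strand: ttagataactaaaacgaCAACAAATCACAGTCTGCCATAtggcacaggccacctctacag
Mir6363, chr16:50727152-50727211, plus strand: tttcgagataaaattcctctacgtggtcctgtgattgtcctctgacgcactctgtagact
Mir218-1, chr5:48223973-48224032, plus strand: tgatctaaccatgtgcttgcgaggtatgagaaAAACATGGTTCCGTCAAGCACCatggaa
The arms of Mir147, Mir23b and Mir6363 that RefSeq lists are not whole within their probes.

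The mature forms, with the seed in capitals, show which of these hairpins share a seed.
mmu-miR-27a-3p: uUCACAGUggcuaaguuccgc
mmu-miR-27b-3p: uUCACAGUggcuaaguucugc
mmu-miR-23a-3p: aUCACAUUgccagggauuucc
mmu-miR-21a-5p: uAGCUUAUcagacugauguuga
mmu-miR-92a-3p: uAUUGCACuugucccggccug
mmu-miR-7a-5p: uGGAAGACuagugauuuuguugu
mmu-miR-218-5p: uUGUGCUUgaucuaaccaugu
mmu-let-7i-5p: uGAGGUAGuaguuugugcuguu
mmu-let-7d-5p: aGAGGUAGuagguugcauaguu
The 27a and 27b forms carry the same seed, although their hairpins lie on chromosomes 8 and 13. The let-7 forms share another.

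The arrays of the compared days lay on different slides, which bears on every value below. Slide 1 held 2 arrays of day 0 and slide 2 the third, replicate 3, while slide 3 held all 3 arrays of day 14. The days are linked only through the day 7 arrays, of which 2 lay on slide 2 and 1 on slide 3. The share of spots well above background was 79.1% and 79.5% on the day 0 arrays of slide 1, 69.0% on that of slide 2, and 64.2% to 64.6% at day 14. No spot was saturated. Changes were therefore counted without a slide term, and again with slide as a fixed block. In both, a probe was called at an adjusted p by limma below 0.05. The array's E1A spike-in controls are known RNAs added in fixed amounts. Their values carry the same 75th-percentile scaling as the nerve probes. Of the 10 spikes, 9 were well above background in at least 94.7% of their spots on each array. Of these 9, 8 differed between day 14 and day 0 by -0.09 to 0.28 on the log2 scale, over mean log2 signals from 6.00 to 18.36. The remaining spike, singled out after its values were seen, at a mean log2 signal of 5.84, read 6.20 on average at day 0 and 5.16 at day 14, a difference of -1.04. Within day 0 alone it differed by -0.90 between slide 2 and slide 1.

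**Figure D1:**
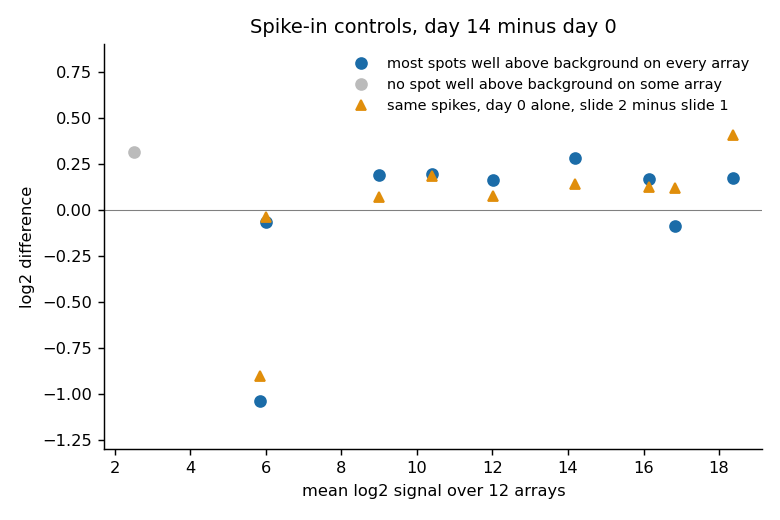
Difference of each E1A spike-in control between day 14 and day 0 (circles, log2 scale) against its mean log2 signal over all 12 arrays, with the difference between slides within day 0 (triangles). Of the 9 spikes above background, 8 lie between -0.09 and 0.28, and the spike at a signal of 5.84 lies at -1.04.

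At day 14, 12214 probes were higher than at day 0 (19.4% of those tested) and 18191 were lower (29.0%), 48.4% in all. With slide as a block, 4163 were higher (6.63%) and 6216 lower (9.9%), 16.5% in all, and 8961 probes (14.3%) were called in the same direction by both fits, 3820 of them higher (6.08%) and 5141 lower (8.19%). The large rises were mostly called in both fits. Of the 366 probes that were higher by 8-fold or more, 354 were also called with the block, against 174 of the 271 that were lower by 8-fold or more. At 4-fold or more, the counts were 1012 of 1117 and 671 of 1259. The values of the days did not overlap for 60% of all probes tested. In the authors' deposited log2 values, 16137 probes were called higher (25.7%) and 14128 lower (22.5%), 48.2% in all. The share of called probes that were higher was 40.2% with 75th-percentile scaling and 53.3% after quantile normalization. The median difference over all tested probes was -0.13 with the former and 0.01 with the latter. The balance of rises and falls thus moved with the scaling. The 26162 probes called in both the scanner values and the authors' values all had the same direction in both. Both kinds of value come from the same arrays, so this likeness is no separate support. Of the 30405 probes called in the scanner values, 84 had the opposite sign in the authors' values.

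Bright and dim probes are given apart. The brightest quartile of tested probes, at a mean log2 signal of 10.45 or more, had 3265 rises (20.8% of that quartile) and 3688 falls (23.5%). The dimmest quartile, at 6.20 or less, had 1958 rises (12.5%) and 5994 falls (38.2%). With the slide block the brightest quartile had 976 rises (6.22%) and 2138 falls (13.6%), and the dimmest 814 (5.18%) and 1164 (7.41%). The median difference of the dimmest quartile was -0.49 without the block, -0.05 with it and -0.09 in the authors' values. That of the brightest quartile was -0.00, -0.09 and 0.06. Within day 0, where time cannot differ, the array of slide 2 lay 0.31 below those of slide 1 in the dimmest quartile and 0.19 above them in the brightest. Of the falls, 84.7% kept their sign with the block in the dimmest quartile and 95.9% in the brightest, and of the rises 97.7% and 96.8%. The falls of the dimmest quartile also moved with single arrays. There were 10209 of them without day 0 replicate 3, 3671 without replicate 1 and 3678 without replicate 2. The rises of that quartile came to 1124 without replicate 3. Each such run redid the background filter and the quartiles, so its dimmest quartile held other probes. Without replicate 3, 69484 probes were tested, against 62803 with all arrays.

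**Figure D2:**
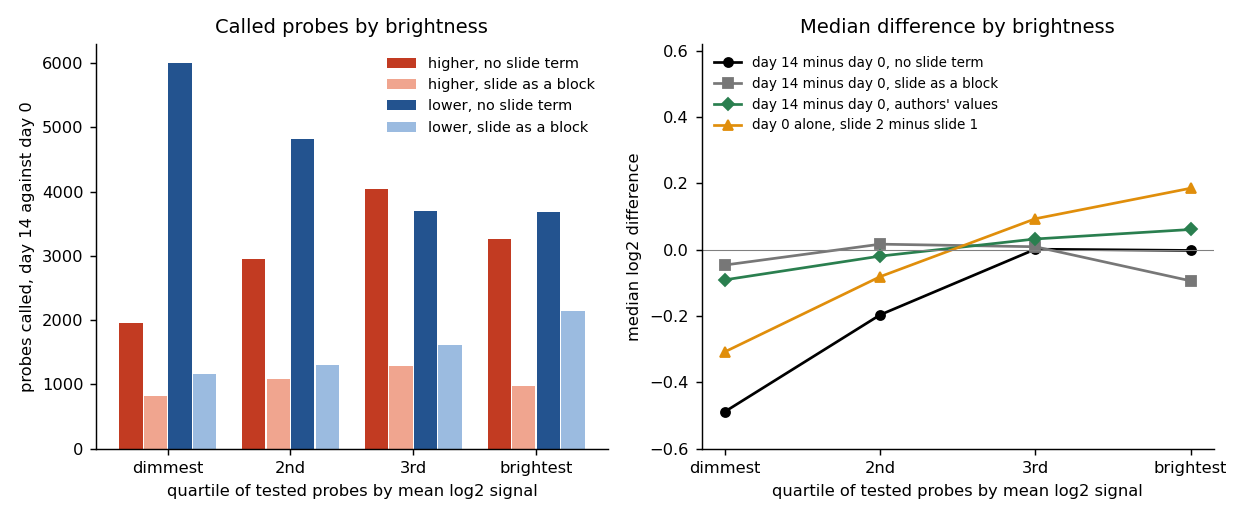
Left, number of probes called higher or lower at day 14 in each brightness quartile, without a slide term and with slide as a fixed block. Right, median log2 difference in each quartile for 3 versions of the comparison and for the slide 2 array of day 0 against the slide 1 arrays of day 0. Without the block the dimmest quartile has 5994 falls and a median of -0.49, and with it 1164 falls and a median of -0.05.

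Among bright probes, 49 of 49 rises of 8-fold or more were also called with the slide block, against 8 of 28 falls of that size. The largest rises and falls shown here lay beyond the spread between arrays, which the rule that named them required. They are named by a rule: well above background on all 6 arrays, no overlap between days, called in the same direction with the slide block, and the largest of these. Unmatched probes are shown by number and sequence, since the RNA each reads was not analysed here.
MOUSELNCRNA_19069: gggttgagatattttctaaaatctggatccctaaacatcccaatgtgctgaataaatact
MOUSELNCRNA_24536: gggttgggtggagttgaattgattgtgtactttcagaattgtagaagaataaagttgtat
MOUSELNCRNA_22491: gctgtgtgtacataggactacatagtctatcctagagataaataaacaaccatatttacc
MOUSELNCRNA_58925: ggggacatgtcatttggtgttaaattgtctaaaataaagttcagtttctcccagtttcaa
MOUSELNCRNA_24536 read 6.53, 5.99 and 5.73 on the day 0 arrays and 11.98, 11.79 and 12.44 at day 14. It rose by 5.99 on the log2 scale (SE 0.23, adjusted p by limma = 1.44e-07), or 63.6-fold, and by 6.29 with the block (adjusted p by limma = 0.000386). It already stood at 12.41 ± 0.15 (SD, n = 3) at day 3 and at 12.54 ± 0.26 (SD, n = 3) at day 7, so the 3 later days lay close together and far above day 0. MOUSELNCRNA_19069 read 5.64, 6.45 and 5.61 at day 0 and 12.62, 11.26 and 12.58 at day 14, a rise of 6.25 (SE 0.46, adjusted p by limma = 4.09e-06). Its day 14 arrays all lay below its day 3 arrays, which read 14.34 to 15.95. In the other direction, MOUSELNCRNA_58925 read 14.94, 14.85 and 14.87 at day 0 and 11.09, 11.73 and 11.21 at day 14. It fell by 3.54 (SE 0.42, adjusted p by limma = 9.67e-05), and its mean was lower at each later day, 13.17 at day 3, 12.69 at day 7 and 11.34 at day 14. MOUSELNCRNA_22491 read 14.15, 13.79 and 14.23 at day 0 and 9.56, 10.49 and 8.60 at day 14, a fall of 4.50 (SE 0.41, adjusted p by limma = 1.66e-05), with day 3 and day 7 means of 9.69 and 8.70. The rule took only probes whose days do not overlap. For 3 of these 4 probes the means of days 3, 7 and 14 all lay far from that of day 0. Brightness is the mean over all 12 arrays, so a probe this dim at day 0 enters the brightest quartile only where later days are high. The time course of the named rises thus follows in large part from the choice of quartile.

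Among dim probes, the unmatched rises that the rule named were highest at day 14.
MOUSELNCRNA_24189: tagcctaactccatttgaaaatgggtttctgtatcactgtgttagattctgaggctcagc
MOUSELNCRNA_29196: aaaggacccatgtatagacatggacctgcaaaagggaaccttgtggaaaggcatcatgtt
MOUSELNCRNA_66423: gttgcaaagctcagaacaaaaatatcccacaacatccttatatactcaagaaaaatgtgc
MOUSELNCRNA_83986: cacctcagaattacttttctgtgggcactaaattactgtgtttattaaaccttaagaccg
MOUSELNCRNA_24189 read 4.66, 4.76 and 4.72 at day 0 and 9.21, 8.85 and 9.24 at day 14. It rose by 4.38 (SE 0.25, adjusted p by limma = 1.06e-06), or 20.9-fold, and by 3.95 with the block (adjusted p by limma = 0.00189). Its mean was 3.98 at day 3 and 6.75 at day 7, so day 14 was its highest point. MOUSELNCRNA_29196 had the same order of days, with 4.61, 4.75 and 5.16 at day 0, means of 4.11 and 6.25 at days 3 and 7, and 8.33, 8.04 and 8.23 at day 14. It rose by 3.36 (SE 0.36, adjusted p by limma = 5.37e-05). Brightness is the mean over all arrays, so a probe this high at day 14 enters the dimmest quartile only where other days are low. The late course of these rises thus follows in large part from the choice of quartile. Among the matched dim rises named by the rule, Mir23b, Gm39932 and Gm24572 were also highest at day 14. Mir1306 was highest at day 3 and Mir6399 at day 7. MOUSELNCRNA_66423 read 9.81, 9.53 and 9.96 at day 0 and 5.52, 6.26 and 5.08 at day 14, and fell by 4.14 (SE 0.42, adjusted p by limma = 3.54e-05). MOUSELNCRNA_83986 read 10.66, 10.63 and 10.97 at day 0 and 7.04, 7.32 and 5.77 at day 14, and fell by 4.04 (SE 0.38, adjusted p by limma = 2e-05). On slides 2 and 3 alone both lost the call (adjusted p by limma = 0.0756 and 0.0649). MOUSELNCRNA_83986 had a mean of 2.14 at day 7, against 6.71 at day 14, a difference that was not tested.

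**Figure D3:**
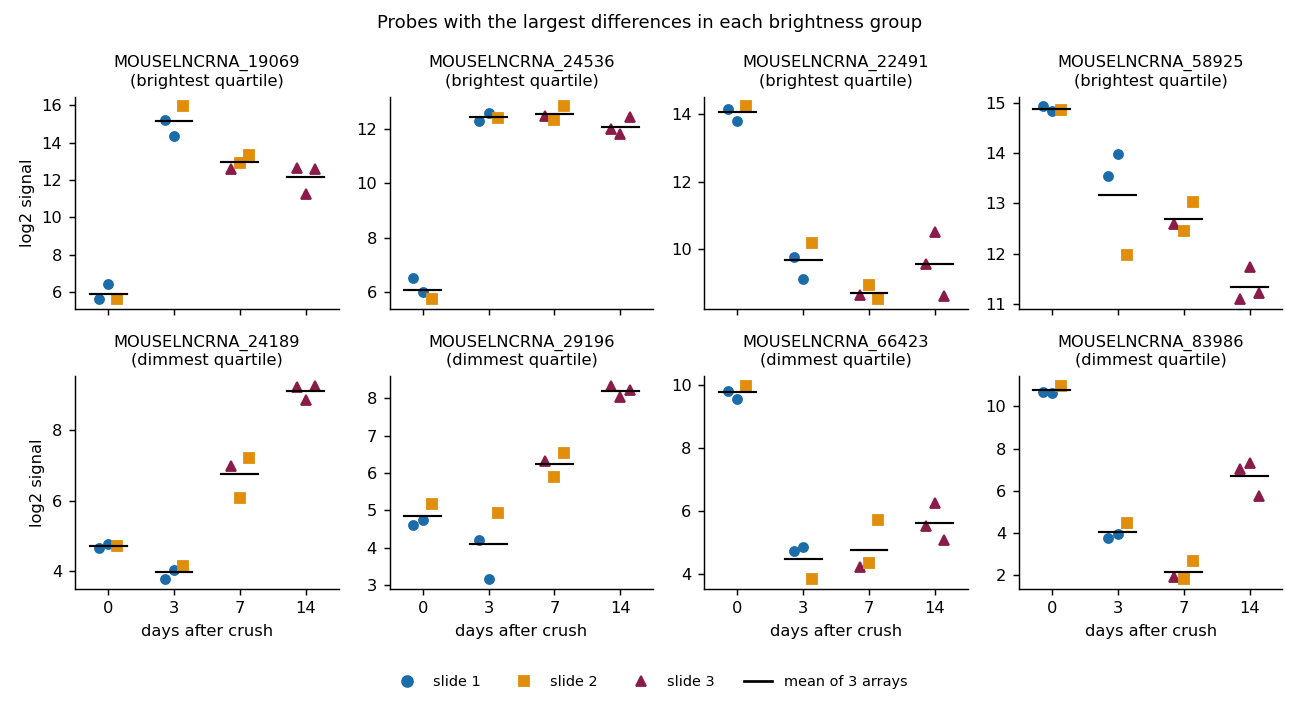
Log2 signal on each of the 12 arrays for the 8 unmatched probes named by the rule, by day after the crush, with marker and colour giving the slide and the bar the mean of 3 arrays. The rule took only probes whose day 0 and day 14 arrays do not overlap, and MOUSELNCRNA_24189 and MOUSELNCRNA_29196 are highest at day 14.

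Some RNAs were measured above background on a single side of the comparison. For 179 probes every day 14 array was well above background and no day 0 array was. These probes were picked for being high on 1 day, so that their calls follow in large part from that choice and are a description. All 179 were called, 159 of them also with the slide block. Taken against the lowest signal well above background on each day 0 array, 42 of them were higher by a bound of more than 8-fold, the largest by at least 172-fold. The reverse pattern, seen on every day 0 array and on no day 14 array, held for 3674 probes, of which 2700 were called and 522 also with the block. Of the 2700, 33 were lower by a bound of more than 8-fold, the largest by at least 52.2-fold. Over all probes tested, 19.4% were called higher and 29.0% lower, and 6.08% and 8.19% in both fits. The lowest signal well above background was 3.38 to 3.99 on the day 0 arrays and 4.50 to 4.58 at day 14. An unchanged probe between these levels can show the reverse pattern, so 3674 against 179 does not measure how many RNAs fell or rose. The 2879 calls of both kinds became 8508 without day 0 replicate 3. This is the day 0 array of slide 2, whose share of spots above background lay nearest to that of day 14. Without it the pattern rests on the slide 1 arrays of day 0 alone, so other probes qualify. The larger count follows in part from that rule.

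Of the 861 hairpin probes, 528 were tested, with 200 in the dimmest quartile and 37 in the brightest. Without the block 61 were higher at day 14 (11.6%, against 19.4% of all probes) and 111 lower (21.0%, against 29.0%), with a median difference of -0.22 against -0.13 for all probes. With the slide block 14 were higher (2.65%, against 6.63% of all probes) and 12 lower (2.27%, against 9.9%), with a median of 0.11 against -0.03. In the authors' values 96 were higher and 73 lower, where 25.7% and 22.5% of all probes were. These differences between hairpin probes and all probes were not tested. Both fits called 12 higher and 10 lower, against 6.08% and 8.19% of all probes, and those 22 are described first. On slides 2 and 3 alone, where day 0 is a single array, 13 of the 22 lost the call. Mir147, Mir21a, Mir23b, Mir27b, Mir6368, Mir92-1, Mir7-1, Mir6363 and Mir678 were still called.

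The largest hairpin rise was that of Mir147, whose microRNA is known for its induction in macrophages by inflammatory signals. The hairpin lies within the span of AA467197 on the same strand. Its probe read 4.72, 4.51 and 4.81 at day 0 and 8.51, 7.83 and 7.68 at day 14. It rose by 3.33 on the log2 scale (SE 0.31, adjusted p by limma = 2.07e-05), or 10.1-fold, and by 3.83 with the block (adjusted p by limma = 0.00226). Its means of 9.95 at day 3 and 9.33 at day 7 lay above that of 8.01 at day 14, so the level at day 14 was past the highest of the course and still far from day 0. Mir21a, whose microRNA is raised in many injured and inflamed tissues, lies within the span of Vmp1, a gene of autophagosome formation, on the same strand. The Mir21a probe read 5.22, 5.66 and 5.66 at day 0 and 8.02, 7.85 and 7.79 at day 14, and rose by 2.37 (SE 0.22, adjusted p by limma = 1.9e-05), or 5.18-fold. With the block the rise was 1.76 (adjusted p by limma = 0.014). It was highest at day 7, with a mean of 8.78 ± 0.32 (SD, n = 3). Among hairpins listed for inflammation and macrophages, 5 of 7 probes were tested, with 3 higher and 2 lower. With the block 2 were higher and 0 lower. Over all probes 19.4% were higher and 29.0% lower, and with the block 6.63% and 9.9%.

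Mir23b and Mir27b are neighbours within the span of Aopep, an aminopeptidase gene, and both rose. The Mir27b probe read 6.05, 6.05 and 6.29 at day 0 and 8.14, 8.16 and 8.32 at day 14, a rise of 2.07 (SE 0.13, adjusted p by limma = 1.79e-06), and of 1.66 with the block (adjusted p by limma = 0.00104). The Mir23b probe read 4.14, 4.47 and 4.55 at day 0 and 6.25, 6.13 and 6.37 at day 14, a rise of 1.87 (SE 0.15, adjusted p by limma = 6.4e-06) and of 1.42 with the block (adjusted p by limma = 0.00342). Both were near their day 0 level at day 3, with means of 6.24 and 4.12, and both were highest at day 14. Their relatives on chromosome 8, Mir23a and Mir27a, were called without the block and not with it. The Mir23a probe read 3.60, 3.53 and 4.26 at day 0, with 2 of 3 arrays well above background, and 5.29, 5.38 and 5.28 at day 14. Its difference was 1.52 without the block (adjusted p by limma = 0.00734) and 0.16 with it (adjusted p by limma = 0.763). For Mir27a the differences were 1.01 (adjusted p by limma = 0.00314) and 0.33 (adjusted p by limma = 0.516). In both, the day 0 array of slide 2 was the highest of day 0, as it was for Mir23b and Mir27b. Mir24-2, in the same cluster as Mir23a and Mir27a, differed by 0.33 (adjusted p by limma = 0.0801), and by 0.63 in the authors' values (adjusted p by limma = 0.0248). Whether the chromosome 13 pair changed more than the chromosome 8 pair was not tested.

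**Figure D4:**
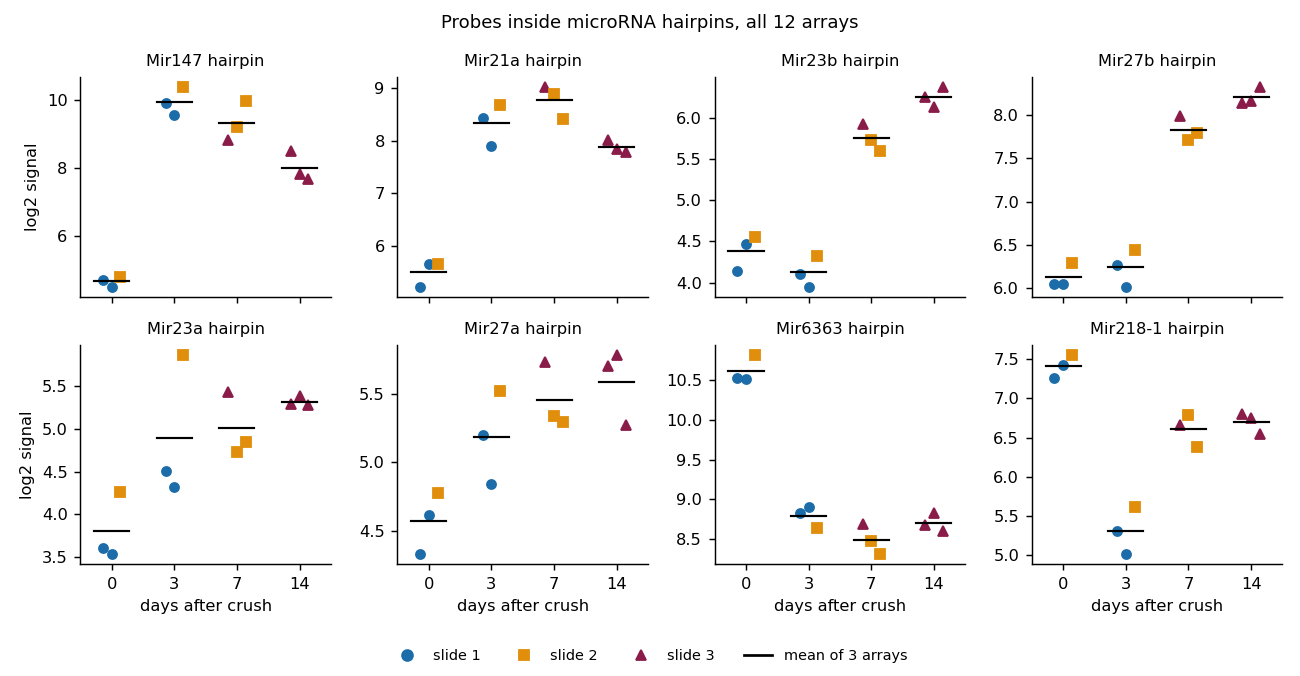
Log2 signal of 8 hairpin probes on each of the 12 arrays, by day after the crush, with marker and colour giving the slide and the bar the mean of 3 arrays. Mir147 and Mir21a peak before day 14, Mir23b and Mir27b are highest at day 14, and the slide 2 array of Mir23a at day 0 (4.26) lies above the slide 1 arrays (3.60 and 3.53).

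The other hairpins that were higher in both fits had smaller changes, and most are named here by the gene around them. Mir7061, within Plekha1, rose by 1.69 (SE 0.18, adjusted p by limma = 5.35e-05), from 4.02, 4.11 and 4.10 to 5.99, 5.6 and 5.72, with 2 of 3 day 0 arrays well above background. Mir6368, within 2610307P16Rik, rose by 1.66 (adjusted p by limma = 0.000393). Mir92-1 belongs to Mir17hg, the host transcript of a microRNA cluster known to promote proliferation. Its probe read 3.88, 4.27 and 2.49 at day 0 and 4.93, 4.50 and 5.21 at day 14, with 2 of 3 arrays of each day well above background, and rose by 1.33 (SE 0.37, adjusted p by limma = 0.0144). The call was lost without day 14 replicate 3, at 1.16 (adjusted p by limma = 0.0546). A second probe shifted by 2 bases stayed below the background flag at day 0, so its size is uncertain. It differed by 1.47 without the block (adjusted p by limma = 0.0115). With the block it differed by 1.55 and was not called (adjusted p by limma = 0.238). Gm24572 and Mir1306 lie within Dgcr8, which encodes the RNA-binding partner of Drosha in hairpin cutting, and rose by 1.0 (adjusted p by limma = 0.000159) and 0.57 (adjusted p by limma = 0.00189). Mir7-1, whose microRNA is abundant in neurons and lies within Hnrnpk, read 6.09, 6.10 and 6.46 at day 0 and 7.04, 6.97 and 7.05 at day 14. It rose by 0.81 (adjusted p by limma = 0.00172) and by 0.79 with the block (adjusted p by limma = 0.00535). Mir6399, within Eif4g3, rose by 0.62 (adjusted p by limma = 0.00265), a call that normexp background correction ended (0.36, adjusted p by limma = 0.0851), and Mir6984, within Mrpl21, by 0.58 (adjusted p by limma = 0.00261).

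The largest hairpin fall in both fits was that of Mir6363, which lies within the long non-coding gene Dubr on the opposite strand. It read 10.53, 10.52 and 10.83 at day 0 and 8.68, 8.82 and 8.59 at day 14. It fell by 1.93 (SE 0.13, adjusted p by limma = 3.28e-06), 3.8-fold, and by 2.25 with the block (adjusted p by limma = 0.00105), and its means at days 3 and 7, 8.79 and 8.49, were near that of day 14. Mir678, within Prmt2, an arginine methyltransferase gene, read 12.13, 12.02 and 12.69 at day 0 and 11.17, 11.43 and 11.28 at day 14, a fall of 0.99 (SE 0.28, adjusted p by limma = 0.0144) and of 1.83 with the block. Mir7025, within Pdgfra, the receptor gene that marks fibroblasts, fell by 0.86 (adjusted p by limma = 0.000204). Mir218-1 lies within Slit2, which encodes a guidance molecule for growing axons. It read 7.26, 7.42 and 7.56 at day 0 and 6.79, 6.74 and 6.55 at day 14, a fall of 0.72 (SE 0.17, adjusted p by limma = 0.00579), with a lower mean of 5.31 at day 3. In the authors' values its adjusted p by limma was 0.0986, and that of Mir7653, which fell by 0.81 without the block, was 0.0563. The falls of Mir5124a (0.74), Mir1970 (0.65), Mir5128 (0.47) and Mir3473d (0.45) were smaller. That of Mir3473f, within Bcl2, was 0.31 and lost its call when any array of the comparison but day 0 replicate 1 was left out.

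**Figure D5:**
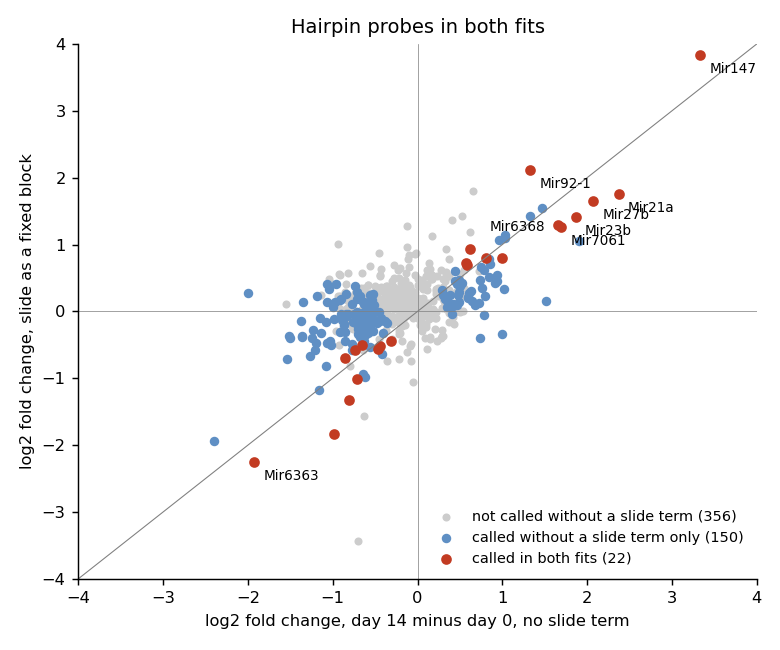
Log2 fold change of the 528 tested hairpin probes, day 14 minus day 0, without a slide term (horizontal axis) and with slide as a fixed block (vertical axis), with a diagonal line of equal values. The 22 probes called in both fits are red, with Mir147 the highest of them and Mir6363 the lowest.

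Other hairpins known from nerve and immune cells, named after their values were seen, were called without the block only. Among let-7 hairpins, whose microRNAs accompany differentiation, 9 of 11 probes were tested, 4 were higher and none lower, where 19.4% and 29.0% of all probes were, with a median of 0.35. The largest was Mirlet7i, which read 4.64, 4.80 and 4.36 at day 0 and 5.41, 5.38 and 5.55 at day 14, a difference of 0.84 (SE 0.14, adjusted p by limma = 0.000888). With the block no let-7 probe was called, the median was 0.29, and Mirlet7i stood at 0.79 (adjusted p by limma = 0.0722). Mirlet7c-1, Mirlet7d and Mirlet7f-1 differed by 0.49, 0.49 and 0.35. Among hairpins listed for Schwann cells and myelination, 9 of 17 probes were tested, 2 were higher and 4 lower, with a median of -0.56. With the block none of them was called, where 6.63% and 9.9% of all probes were, and the median was -0.38. Mir338, whose microRNA is known from myelinating glia, read 8.15, 8.12 and 8.44 at day 0, had means of 5.84 and 7.42 at days 3 and 7, and read 9.01, 8.99 and 8.90 at day 14. The difference was 0.73 without the block (adjusted p by limma = 0.0421) and -0.40 with it (adjusted p by limma = 0.315), and leaving out any array but day 0 replicate 3 ended the call. Mir219a-1, also known from myelinating glia, differed by -0.77 (adjusted p by limma = 0.00124) and by -0.57 with the block (adjusted p by limma = 0.162). Mir214, which lies in the Dnm3os transcript of fibroblasts, differed by 1.03 (adjusted p by limma = 0.00709) and by 1.15 with the block (adjusted p by limma = 0.176).

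Mir106b and Mir93, within Mcm7, a gene of the replicative helicase, differed by -0.82 and -0.71 without the block and by -0.03 and -0.13 with it, while Mir25 of the same cluster differed by 0.04. Mir106b also lost its call when any array but day 0 replicate 3 was left out. Mir155, known from activated immune cells, read 7.29, 7.28 and 7.00 at day 0 and 6.31, 6.63 and 6.51 at day 14, a difference of -0.71 (adjusted p by limma = 0.0123) and of -0.01 with the block (adjusted p by limma = 0.987). Mir142b, from blood cells, read 5.65, 5.49 and 4.67 at day 0 and 5.01, 4.52 and 4.24 at day 14, where no array was well above background. The values of the days overlapped, and its adjusted p by limma was 0.0423 without the block and 0.596 with it. Mir128-2, known from neurons, read 6.18, 6.17 and 4.93 at day 0 and 4.89, 4.65 and 4.84 at day 14, so that the slide 2 array of day 0 lay next to those of day 14. It differed by -0.96 (adjusted p by limma = 0.0428) and by 0.41 with the block (adjusted p by limma = 0.361). Mir138-2 and Mir222 were well above background on every day 0 array and on no day 14 array, and their slide 2 arrays of day 0 read 4.49 and 4.14, the lowest of that day. The Mir223 hairpin, from myeloid cells, was not well above background on any array of either day, so no change is given for it. The 4 overlapping probes of Mir3068, within Alkbh1, differed by 0.86 to 1.33 and were all called, and none was called with the block. As a check on other tissue, 4 of 5 probes for hairpins of skeletal muscle were not tested. The fifth, Mir133b, differed by -0.91 (adjusted p by limma = 0.119), and hairpins of endothelium and of red cells had 1 probe each, neither of them tested. The labelled tissue could not be checked against Schwann cell markers, because no probe was matched to their genes.

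Probes around gene starts gave names to further changes, although such a probe reads RNA from that stretch and not necessarily from the gene. Of 195 on the gene's strand, 128 were tested, with 19 higher (14.8%) and 33 lower (25.8%), and with the block 6 (4.69%) and 11 (8.59%). Of 187 on the other strand, 126 were tested, with 18 higher (14.3%) and 42 lower (33.3%), and with the block 6 (4.76%) and 15 (11.9%). Over all probes the shares were 19.4% and 29.0% without the block and 6.63% and 9.9% with it. A probe at the start of H2ac24, a replication-dependent histone gene, showed the largest rise on the gene's strand among probes called in both fits.
H2ac24, chr13:21833469-21833528, minus strand: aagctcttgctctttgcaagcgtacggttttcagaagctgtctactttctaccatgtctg
It read 6.67, 6.52 and 6.47 at day 0 and 9.14, 8.82 and 9.45 at day 14, and rose by 2.58 (SE 0.16, adjusted p by limma = 1.72e-06), or 5.99-fold, and by 2.59 with the block. Day 3 was higher still, at a mean of 10.15. The H2ac24, Zeb2, Zfp827, Tmem33, Gm51911 and Gm31618 probes were chosen after their values were seen, as were the hairpins outside the rule.

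Against Zeb2, a repressor gene that Schwann cells need to remyelinate after injury, a pair of probes with no shared bases read the opposite strand.
Zeb2 opposite strand, chr2:45113226-45113285: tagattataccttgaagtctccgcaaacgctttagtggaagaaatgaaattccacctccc
Zeb2 opposite strand, chr2:45113346-45113405: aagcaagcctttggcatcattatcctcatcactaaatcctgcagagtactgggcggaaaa
The first read 8.70, 8.70 and 8.91 at day 0 and 9.95, 9.80 and 9.93 at day 14, and rose by 1.12 (SE 0.13, adjusted p by limma = 8.42e-05) and by 0.63 with the block (adjusted p by limma = 0.016). The second read 5.90, 5.87 and 6.02 at day 0 and 6.83, 6.65 and 6.65 at day 14, and rose by 0.78 (SE 0.11, adjusted p by limma = 0.000251), with 0.59 in the block fit (adjusted p by limma = 0.051). Their order over days differed: at day 3 the first stood at 8.93, near day 0, and the second at 6.92, above its day 14 mean of 6.71. Opposite to Tmem33, a gene of the endoplasmic reticulum membrane, a probe rose by 1.49 (adjusted p by limma = 1.45e-05), from 5.0, 4.98 and 5.13 to 6.67, 6.52 and 6.39. Opposite to Gm51911 a probe rose by 2.28 (adjusted p by limma = 0.000773). At the start of Zfp827, a zinc finger gene, overlapping probes rose by 0.95 and 0.51.

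By the same rule as for unmatched probes, the bright matched probes held a single rise and 10 named falls. At St6galnac6, a sialyltransferase gene, the probe read at most 10.11 at day 0 and 10.64, 10.54 and 10.65 at day 14, a rise of 0.58 (SE 0.11, adjusted p by limma = 0.00185). Before the start of Wdr6, on its strand at positions -224 to -165 from the first base, the probe read 12.01, 11.89 and 12.16 at day 0 and 10.57, 10.74 and 10.58 at day 14, a fall of 1.39 (SE 0.14, adjusted p by limma = 3.31e-05) and of 1.81 with the block. The probe opposite to 1700010K23Rik fell by 1.45 (adjusted p by limma = 8.76e-05) and that at Gm40826 by 1.35 (adjusted p by limma = 9.09e-06). The other falls at gene starts that the rule named were Gm40443 (1.0), Gm32026 (0.74), 1700112J05Rik (0.73), Gm52299 (0.67), Gm41479 (0.58, while a second probe on its strand differed by 0.11) and Tnfrsf4 (0.48), a T cell costimulatory receptor gene, with Mir678 above as the tenth of 16 that met it. Gm35195 (-0.55) and Gm52432 (-0.54) were passed over because each shares at least 25 bases with a named probe. These are the probes of Gm41479 and of 1700112J05Rik, so these RNAs may not be told apart. The named probes of Gm32026, 1700112J05Rik and Gm41479 also share a shorter run of bases among themselves. Matches were sought only in hairpins and gene starts, so these falls may not be of separate RNAs. At days 3 and 7 the means of 1700112J05Rik, 12.99 and 12.89, lay below that of 14.04 at day 14, so this RNA stood nearer to its day 0 mean of 14.77 at day 14 than before. Among dim matched probes, a probe opposite to Gm39932 rose by 1.47 (adjusted p by limma = 0.00213), that at 4930555G07Rik fell by 2.49 (adjusted p by limma = 0.000147), from 9.09, 8.90 and 9.47 to 6.77, 7.06 and 6.17, and that opposite to Wbp11, a splicing factor gene, fell by 0.81 (adjusted p by limma = 0.000234). Opposite to Gm31618 a probe of middle brightness fell by 1.63 (adjusted p by limma = 0.000113).

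Of the 182 genes in lists for myelin, lipid synthesis, repair Schwann cells, immune cells, matrix, axons, other tissues and long non-coding RNA, 5 had a matched probe, so the lists themselves could not be read. Of their 6 probes, 5 were tested, 3 were called without the block and 0 with it by limma. Over all probes tested, 48.4% were called without the block and 16.5% with it. Meg3, an imprinted long non-coding RNA, read 15.07, 15.20 and 15.52 at day 0 and 15.56, 16.04 and 16.06 at day 14. It differed by 0.62 (SE 0.20, adjusted p by limma = 0.0244) and by 0.90 with the block (adjusted p by limma = 0.162), and the call was lost without day 0 replicate 1 or 2 or day 14 replicate 2 or 3. Before the start of Prph, which encodes the intermediate filament peripherin of peripheral neurons, the probe read 8.81, 8.80 and 8.26 at day 0 and 7.42, 7.5 and 7.35 at day 14. It differed by -1.20 (SE 0.20, adjusted p by limma = 0.000895) and by -0.41 with the block (adjusted p by limma = 0.0907). The probe at Alas2, an erythroid enzyme gene, differed by -0.39 (adjusted p by limma = 0.0378), and those at Mirg by -0.62 and -0.58 (adjusted p by limma = 0.0593 and 0.0583).

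Probes that share bases can read the same RNA, and they lie on the same arrays, so their agreement says nothing of a slide difference. Among 6380 pairs of tested probes sharing at least 25 bases on the same strand, both were called in 2520 pairs, in the same direction in 2508, and over all pairs the sign was the same in 88.2%. Their log2 differences lay a median of 0.11 apart, and 0.08 in the brightest quartile against 0.22 in the dimmest. Among 485 pairs that overlap on opposite strands, both were called in 63, with 39 in the same direction and 24 in opposite ones. The median GC content was 40.0% in probes higher without the block, and 41.7% both in those lower and in those not called. Within the brightest quartile it was 40.0% in each of these groups, and within the dimmest 40.0%, 43.3% and 43.3%. In probes of any brightness called by both fits it was 38.3% for rises and 40.0% for falls, and in the brightest quartile 38.3% for each. The part of GC content in the result was not tested.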

How the data were processed

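Total RNA of each pool was labelled with Cy3 and hybridised to a 1-colour Agilent array. Per the file headers, the spot intensities were extracted by Agilent Feature Extraction 10.7.1.1, with background subtracted and each array detrended, and no step between arrays. The flags of each spot, a further kind of value deposited by the authors, mark spots well above background, saturated or outlying. The authors' deposited log2 values of the same arrays have a median of 6.42 in every column and correlated with the scanner values at 0.993 or more. How these were scaled between arrays is not given in the sources used here. They gave nearly the same counts as quantile normalization of the scanner values, 30265 and 30263 probes called. The authors' values and quantile normalization are therefore not separate checks.

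Control and outlier spots were left out and spots of a probe averaged. The log2 signal was set to a common 75th percentile of 9.34. Testing took every probe that cleared the background flag on the 3 arrays of some day. Two-sided limma tests (limma 3.58.1 in R 4.3.3, lmFit and eBayes) used all 12 arrays with 1 mean per day and Benjamini-Hochberg adjustment over 62803 probes. The number of arrays limits the precision, with a median SE of 0.16. The step was tested on simulated data that held no slide difference. There it called 3 of 50 log2 changes of 0.5, 30 of 50 of 1.0 and 48 of 50 of 2.0.

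Probes were named by exact matches to RefSeq hairpins and gene starts (GRCm38.p6). Probes named by rule were called in both fits, above background on all 6 arrays and not overlapping: up to 2 unmatched and 10 matched rises and falls in the brightest and dimmest quartile. The members and lists were chosen with earlier results of these data known. The alternatives were other scalings, backgrounds, filters, slide terms, replicate blocks, thresholds and arrays left out.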

Additional observations from a re-analysis of the deposited data

How the results depend on the processing

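With slide as a fixed block 10379 probes were called, with a random block 15612, on slides 2 and 3 alone, where day 0 is 1 array assumed to vary like the other days, 6225, with the block and quantile normalization together, chosen after seeing the data, 10639, and at an adjusted p below 0.01 by limma 16829. Rises of the brightest quartile numbered 976, 1770, 578, 1709 and 1867 in the same order, and 5604 with array weights, under which 45071 probes were called in all. Falls of the brightest quartile numbered 2138 with the fixed block, 943 on slides 2 and 3, 1516 with block and quantile normalization and 2148 at 0.01. Rises of the dimmest quartile numbered 814, 1203, 682, 806 and 1225 in the first order, 3221 after quantile normalization and in the authors' values, 1197 with normexp background, 7970 with no filter and 960 with a filter of at least 1 of the 6 arrays. Falls of the dimmest quartile numbered 1164, 2177, 834, 1175 and 2956 in the first order, 3780 after quantile normalization, 3777 in the authors' values, 3058 with normexp and 1421 with no filter. Calls among probes seen on 1 day only numbered 719, 1280, 843, 669 and 1748 in the first order, and 1304 with normexp. Leaving out 1 array gave 20331 to 39814 calls, 2194 to 4524 and 2567 to 3913 bright rises and falls, 1124 to 1779 and 3671 to 10209 dim rises and falls, and 2055 to 8508 calls of probes seen on 1 day. Each run with an array left out redid the background filter and the quartiles, so its sets of probes differed. The cause was not tested. Of 1658 values of 76 named probes, 1418 kept direction and side of the threshold, 224 lost the call, 5 gained it and 11 changed sign. On slides 2 and 3 alone 42 of the 76 lost the call and 4 changed sign. Mir338 stood at -0.40 with the fixed block, -0.18 on slides 2 and 3 and -0.52 with block and quantile normalization, Mir128-2 at 0.41, 0.56 and 0.40, and Mir138-2 at 0.38, 0.57 and 0.39. Mir106b stood at 0.022 on slides 2 and 3, and Mirlet7f-1 at -0.021 with block and quantile normalization. The replicate numbers did not pair the arrays: same-numbered deviations correlated at 0.153, -0.174 and -0.0217. With the replicate block 31746 probes were called, with 3373 and 3675 bright rises and falls, 1989 and 6514 dim ones and 2995 probes seen on 1 day, and no named probe changed its call.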
